A study of Mus musculus with 123 samples.

Results

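Cardiomyocytes (CMs) of the newborn mouse heart (P1) were compared with CMs of the looping embryonic heart (E9.5) in 51 of the 123 single cells of the study. The cells came from αMHC-GFP mice, in which the αMHC (Myh6) promoter drives GFP in heart muscle cells, and GFP+ cells were sorted from dissociated hearts, captured on a microfluidic chip and sequenced one by one. From the 52 P1 cells, the 41 in which at least 2000 genes had a read count were taken. From the 42 E9.5 cells, the 14 whose titles begin with C were taken, since all P1 titles begin that way too, and the other 28, whose titles begin with N530, served as a check of direction. Cells in which Ttn, Actc1, Myh6 and Tnnt2 summed to under 1000 CPM, a gene's counts scaled to a common total per cell, were then left out, which removed 1 P1 cell and 3 E9.5 cells and left 40 and 11. Titles of 2 of these P1 cells and 1 of these E9.5 cells end in "no", which the labels do not explain. The P1 cell left out stood at 258 CPM of these 4 genes and the lowest cell kept at 32894 CPM. At E9.5 the cells left out reached 176 CPM at most, and the lowest kept stood at 15813 CPM. The E9.5 N530 cells had no member under the limit, with a lowest value of 1564 CPM. By number of genes, the closest P1 cells on either side of the limit had 1985 and 2124 genes.

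Both groups came from αMHC-GFP mice and share the promoter that selected them, and they differ in more than age. E9.5 hearts were dissociated with collagenase type I, whereas P1 hearts were dissociated for longer with Liberase and passed through a strainer. The labels name no animal, litter or chip. Each time point was therefore 1 sample, no doublet caller was run and no test across cells was made. Intervals on pooled values cover the counting error of reads only. The kept P1 cells held from 69522 to 327360 counts (median 148499) and from 2124 to 4156 genes, and the kept E9.5 cells held from 268301 to 588443 counts (median 444013) and from 3811 to 5454 genes. Summed over cells this gave 6614049 counts at P1 and 4402105 at E9.5. Because the E9.5 cells were read more deeply, the cells in which a gene was found were also counted after every cell was thinned to 60000 counts, a depth that all 51 cells reached. Where that number differs, it follows in parentheses.

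At E9.5 the heart tube already beats, with muscle cells that still divide and carry few internal calcium stores. In the days around birth these cells enlarge, couple electrically through gap junctions, attach their contractile apparatus to the surrounding matrix, and begin to burn fatty acids as the oxygen supply rises. Fetal forms of many enzymes and structural proteins are exchanged for muscle or heart forms during this period.

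The CM identity of both groups was checked with 20 marker genes that the selection did not use. All 20 had counts in the pooled cells of both groups, though not in every cell, and Ckm had only 5 counts at E9.5. Their summed level was from 7396 to 14759 CPM (median 11444) at E9.5 and from 27761 to 139209 CPM (median 40859) at P1. Nppa, which is in this list, alone reached 120233 CPM in a P1 cell. The endothelial list was at 0 for 10 of 13 genes at P1 and 8 of 13 at E9.5, Pecam1 and Cdh5 among them, and summed to between 0 and 23.99 CPM per P1 cell and between 0 and 277 CPM per E9.5 cell. Of the 11 fibroblast genes, 10 and 9 were at 0 at P1 and at E9.5, including Col1a1, Col3a1 and Dcn, with sums per cell of up to 494 and 372 CPM. In the epicardial list 7 of 8 genes were at 0 at P1 and 4 of 8 at E9.5, with sums per cell of up to 372 and 499 CPM. Ptprc and Csf1r were at 0 in both groups, where 9 of 10 leukocyte genes were at 0, and sums per cell reached 636 CPM at P1 and 255 CPM at E9.5. Erythroid genes were at 0 throughout, and of the 8 neural crest genes 7 were at 0 at P1 and 8 at E9.5. Smooth muscle genes were the exception, with Tagln at 778 CPM in E9.5 CMs and 25.6 CPM in P1 CMs and Acta2 at 3477 CPM in E9.5 CMs and 1441 CPM in P1 CMs, while Myh11, Pdgfrb and Kcnj8 were at 0 in both groups. The summed smooth muscle list was from 2388 to 8080.5 CPM (median 5241) at E9.5 and from 0 to 5811 CPM (median 1143) at P1. In the N530 cells the CM markers summed to between 3195 and 46654 CPM per cell (median 20307). Single N530 cells held up to 1570 CPM of the endothelial, 4007 CPM of the fibroblast and 2696 CPM of the epicardial list. The N530 medians of these 3 lists were 6.13, 20.03 and 9.21 CPM.

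A gene was compared where the mean of the pooled CPM at both ages was 10 or more, which 7609 genes passed, and it was called higher or lower at P1 from a 2-fold difference on. By this rule 1612 genes, 21.2% of those compared, were higher at P1 and 2853, or 37.5%, were lower. The median log2 ratio of P1 to E9.5 over all genes was -0.42. Genes of the cell cycle, the sarcomere and respiration took 30.6% of the counts at P1 and 12.7% at E9.5, and apart from the chamber light chains Myl2, Myl7 and Myl4 they are not described further. Scaling by TMM factors moved the median by 0.42 and gave 2137 genes higher and 2160 lower. Totals without those 3 lists moved it by 0.36, with 2261 higher and 2443 lower, and the deposited TPM moved it by -0.36, with 974 higher and 2905 lower. The medians of gene families are therefore to be read against the -0.42 of all genes, and their counts against the shares of 21.2% and 37.5%. Against the N530 cells, the median over all genes was -0.57, with 19.4% higher and 41.3% lower. Both comparisons use the same P1 cells. Genes named by rule for a large ratio were kept only where N530 cells gave the same direction, so their N530 values are descriptions. A gene that is low at one age reaches the level limit through the other age alone and then has to differ, so that counts and medians over the compared members of a family are descriptions.

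**Figure D1:**
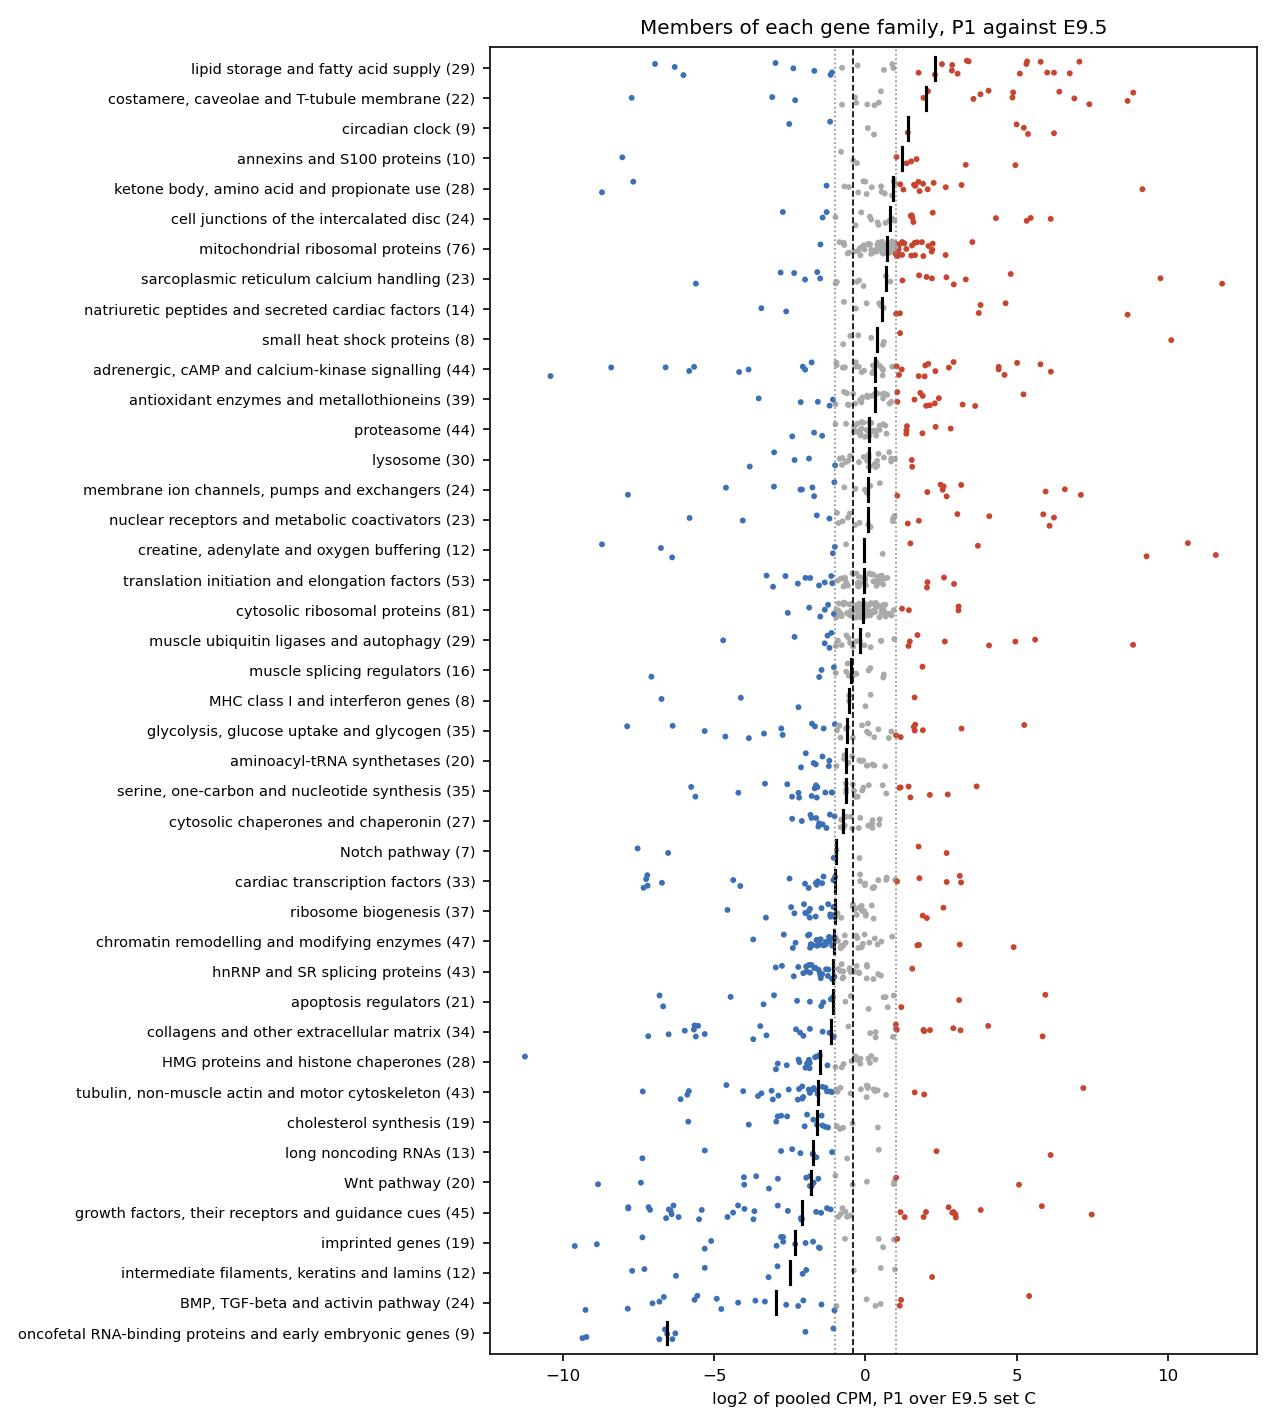
Log2 ratio of pooled CPM, P1 over E9.5, for every compared member of 43 gene families (number of members in parentheses). Red and blue points are members at least 2-fold higher or lower at P1, black bars are family medians, dotted lines mark 2-fold and the dashed line marks the median of all 7609 genes at -0.42. The families range from a median of -6.55 for oncofetal RNA-binding proteins to 2.30 for lipid storage and fatty acid supply.

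Genes of calcium handling by the sarcoplasmic reticulum, the internal store whose release triggers each contraction, moved in both directions. Of the 33 listed genes in the file, 23 were compared, 10 were higher and 6 lower, with a median log2 ratio of 0.67 that was -0.03 on the deposited TPM, and against N530 cells 8 were higher and 8 lower. Casq2, the calcium-binding protein inside the store, was at 0 counts in all 11 E9.5 cells and ranged from 343 to 5893 CPM (median 2151) at P1. Every P1 cell lay above every E9.5 cell, and the pooled level was at least 3541-fold higher. The N530 cells had a pooled Casq2 level of 0.0943 CPM. Atp2a2, the pump that refills the store, ranged from 144 to 1263 CPM (median 670.4) at E9.5 and from 1504 to 12239.5 CPM (median 3856) at P1. These ranges did not overlap, and the level was 6.40-fold higher (95% interval 6.16 to 6.66). Pln, which restrains that pump, ranged from 0 to 1412 CPM (median 9.71) at E9.5 and from 160.3 to 12883 CPM (median 6165) at P1. Here 37 of 40 P1 cells exceeded the highest E9.5 cell, and the level was 27.9-fold higher (95% interval 26.2 to 29.7). The release channel Ryr2 was 4.59-fold higher (95% interval 4.36 to 4.84), although its ranges overlapped, with 22 of 40 P1 cells above the highest E9.5 cell. S100a1, a calcium-binding regulator of both the pump and the channel, stood at 49.3 CPM in E9.5 CMs and 491 CPM in P1 CMs. Canx, a chaperone of the general endoplasmic reticulum that sits in the same list, stood at 4438 CPM in E9.5 CMs and 2242 CPM in P1 CMs, short of a 2-fold difference. The 6 lower members were Atp2a1, the pump of fast skeletal muscle, Casq1, its calcium store protein, the IP3 receptor Itpr1, the channel-binding Fkbp1a, calreticulin (Calr) and calmodulin (Calm2). Itpr1, Fkbp1a and Calr fell from 114, 1259 and 356 CPM to 16.3, 246 and 89.5 CPM, and Calm2, Casq1 and Atp2a1 from 839.8, 308 and 22.03 CPM to 278, 109 and 0 CPM. Sln, a small regulator of the pump in atria, was at 0 counts at E9.5 and at 100 CPM or more in only 6 P1 cells. Leaving out the cell with most of a gene's counts moved the log2 ratio of Atp2a1 from -5.60 to -1.21 and Itpr1 from -2.80 to -2.05.

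At the cell surface the family of ion channels, pumps and exchangers was mixed, with 10 of 24 compared genes higher and 8 lower (median log2 ratio 0.10, and -0.59 against N530 cells, where 10 were higher and 10 lower), and the other 22 of its 46 members did not reach the level limit. Kcne1, a subunit of the slow potassium current, was found in 30 of 40 (29 thinned) P1 cells and 2 of 11 (1 thinned) E9.5 cells, at 2.04 CPM in E9.5 CMs and 285 CPM in P1 CMs. Kcnj2, the inward rectifier that holds the resting potential, was found in 11 of 40 P1 cells and in none of the 11 E9.5 cells. Its pooled level was at least 96.5-fold higher. Cacna2d2, a calcium channel subunit, was at least 230.4-fold lower, with 104 CPM at E9.5 and no count at P1. Slc8a1, the sodium-calcium exchanger and the most abundant member, differed little, at 1979.7 CPM in E9.5 CMs and 1573 CPM in P1 CMs.

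Junction genes and the membrane skeleton had more members higher than lower. The intercalated disc, where CMs join end to end, had 9 of 24 genes higher and 3 lower (median 0.81, against 0.10 with N530 cells, where 6 were higher and 5 lower). The most abundant member was Gja1, connexin 43, which ranged from 0 to 306 CPM (median 0) at E9.5 and from 589.7 to 13129 CPM (median 4701) at P1. All 40 P1 cells lay above the highest E9.5 cell, and the level was 69.8-fold higher (95% interval 62.5 to 78.3). Connexin 40 (Gja5), an atrial and conduction connexin, rose from 1.59 to 63.95 CPM, but without the 6 P1 cells with Sln its pooled level at P1 was 3.57 CPM. Ctnnb1, beta-catenin, stood at 516 CPM in E9.5 CMs and 259.9 CPM in P1 CMs. In the family of costameres, caveolae and T-tubule membrane, which anchor the sarcomere to the cell surface and fold that surface, 12 of 22 genes were higher and 3 lower, with a median of 1.99 and of 1.76 against N530 cells. Dmd, dystrophin, ranged from 0 to 263 CPM (median 0) at E9.5 and from 0 to 2407 CPM (median 460.0) at P1, and was 29.5-fold higher (95% interval 24.1 to 36.6). The caveolar genes Cav3 and Sdpr stood at 206 and 115 CPM at P1 against 12.3 and 0 CPM at E9.5. Ptgds, which the list also holds, encodes a prostaglandin synthase rather than a membrane protein. It had no count at E9.5 and was found in 38 of 40 P1 cells at a pooled 277 CPM. Itgb1, the integrin that ties costameres to the matrix, was at 349.8 CPM in E9.5 CMs and 284 CPM in P1 CMs. A single cell weighed on some of these ratios, and without it the log2 ratio of Gja5 went from 5.33 to 4.52.

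**Figure D2:**
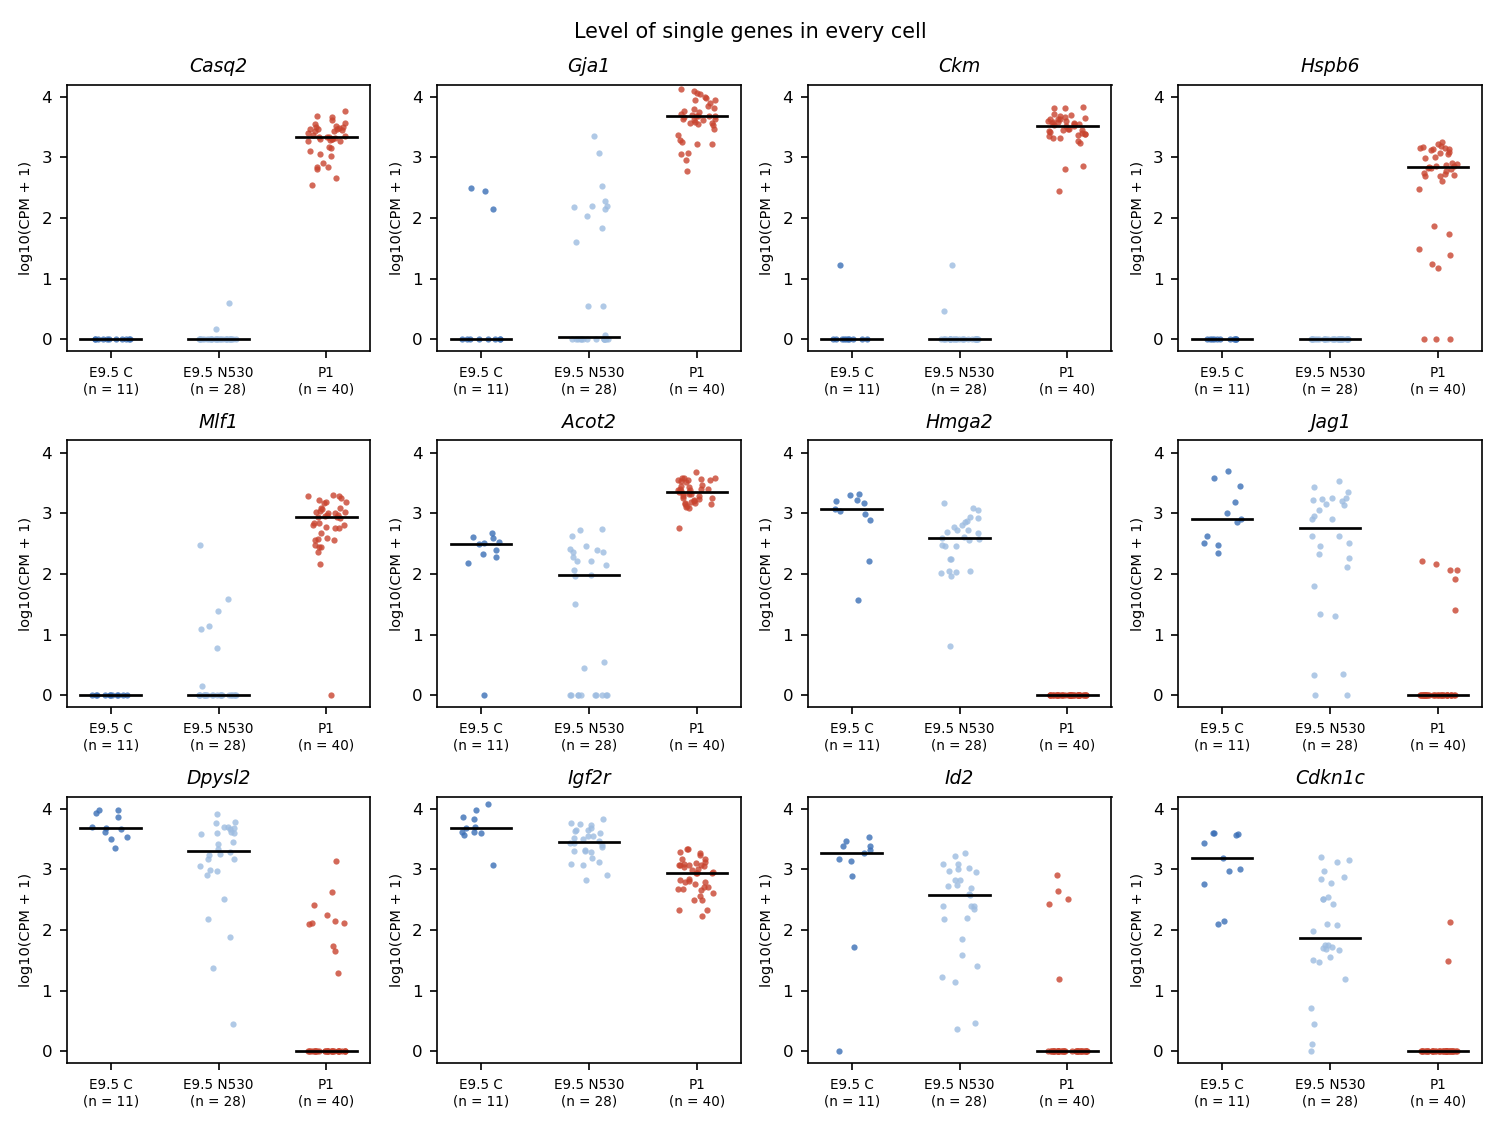
Level of 12 genes in every cell as log10(CPM + 1), with a black bar at the median of the 11 E9.5 C cells, the 28 E9.5 N530 cells and the 40 P1 cells. All 40 P1 cells lie above all 11 E9.5 C cells for Casq2, Gja1, Ckm and Acot2, and below all of them for Hmga2, Jag1 and Dpysl2.

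Among genes of energy buffering and fuel supply outside the respiratory chain, Ckm, Mb and Acot2 had ranges that did not overlap between the ages. The list of creatine, adenylate and oxygen buffering held as many higher as lower genes, 5 and 5 of 12, with a median of -0.03 that was 0.34 by TMM, and its summed level per cell ran from 689.5 to 2454 CPM (median 1275) at E9.5 and from 1629 to 9747 CPM (median 6495) at P1, with overlap. Ckm, the muscle creatine kinase, ranged from 0 to 16.02 CPM (median 0) at E9.5, with counts in 1 of 11 cells, and from 281 to 6742 CPM (median 3308) at P1. It was 3063-fold higher (95% interval 1312 to 9433), and no P1 cell overlapped the E9.5 range. The mitochondrial creatine kinase Ckmt2 had 1 count at E9.5 and a pooled 367 CPM at P1, a ratio of 1616 with an interval of 289.8 to 63855. Myoglobin (Mb), the oxygen store of muscle, ranged from 0 to 18.02 CPM (median 0) at E9.5 and from 127 to 2454 CPM (median 1088) at P1, and again the ranges were apart. Gatm, which makes the precursor of creatine, went from 189 CPM to no count at P1. When the cell that held most counts of the gene was left out, the log2 ratio of Gatm went from -8.70 to -8.09.

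The list of lipid storage and fatty acid supply had the highest median of all families in this comparison, 2.30, with 16 of 29 genes higher and 8 lower. Against N530 cells that median was 0.33. Acot2, a mitochondrial thioesterase that releases fatty acids from coenzyme A, ranged from 0 to 477 CPM (median 311) at E9.5 and from 568 to 4819 CPM (median 2214) at P1. The groups did not overlap and the level was 8.27-fold higher (95% interval 7.81 to 8.77). Dgat2, which makes triglycerides, Plin5, which coats lipid droplets in oxidative tissue, and Angptl4, a secreted inhibitor of lipoprotein lipase, had no count at E9.5 and pooled levels of 91.8, 51.3 and 73.6 CPM at P1. Among the genes that were lower, Acsl4, an acyl-CoA synthetase, was 7.84-fold lower (95% interval 7.19 to 8.55). In the list of ketone body, amino acid and propionate use, 12 of 28 genes were higher and 3 lower (median 0.91). Acat1 and Got1, which serve ketone use and the malate-aspartate shuttle, rose from 101 and 155 CPM to 637 and 521 CPM. Bcat1, the cytosolic branched-chain transaminase, was the opposite case, at 92.5 CPM at E9.5 with 0 counts at P1.

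Of the genes of glycolysis, glucose uptake and glycogen, 8 of 35 were higher and 12 lower, near the shares of all genes, with a median of -0.59. The pairs of forms described here, with Ldhb, Pgam1, Slc2a1, Slc2a4, Tuba1a and Eef1a2, were picked after their values were seen, as were Itpr1, Fkbp1a, Calr, Calm2, Casq1, Hand2, Gata6, Srf, Plin5, Cav3, Ezh2, Sall4, Smad6, Smad7, Akap6, Peg3 and Usp29. Within a cell, the share of a pair's counts taken by 1 form does not depend on the scaling. A pooled share weights each cell by its counts of the pair. Ldhb, the lactate dehydrogenase subunit that prevails in heart, held 10.1% of the Ldha and Ldhb counts at E9.5 (exact binomial interval 9.63 to 10.6%), 10.3% in N530 cells, and 76.3% at P1 (75.8 to 76.8%). Per cell the share ran from 3.35 to 21.7% at E9.5 and from 39.5 to 99.8% at P1, so that no cells overlapped. In N530 cells it ran from 0 to 34.2% with a median of 0.77%, far from their pooled share. Ldhb itself went from 383 to 3466 CPM and Ldha from 3416 to 1075 CPM. Of the creatine kinase counts of Ckm and Ckb, the brain form, Ckm held 0.483% at E9.5 and 96.9% at P1, and in single cells at most 5.88% and at least 80.7%. Pgam2, the muscle phosphoglycerate mutase, already held 51.7% of its pair at E9.5 and held 97.1% at P1. The groups touched, with a highest E9.5 share of 77.03% and a lowest P1 share of 76.95%, and the N530 cells spread from 0 to 97.96%. Slc2a1, the glucose transporter of embryonic and proliferating cells, fell from 491 to 34.02 CPM, and Slc2a3 from 106 CPM to 0 counts. Slc2a4, the insulin-responsive transporter, was low at both ages, at 7.95 CPM in E9.5 CMs and 17.8 CPM in P1 CMs, and its log2 ratio went from 1.17 to 0.60 without 1 P1 cell.

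**Figure D3:**
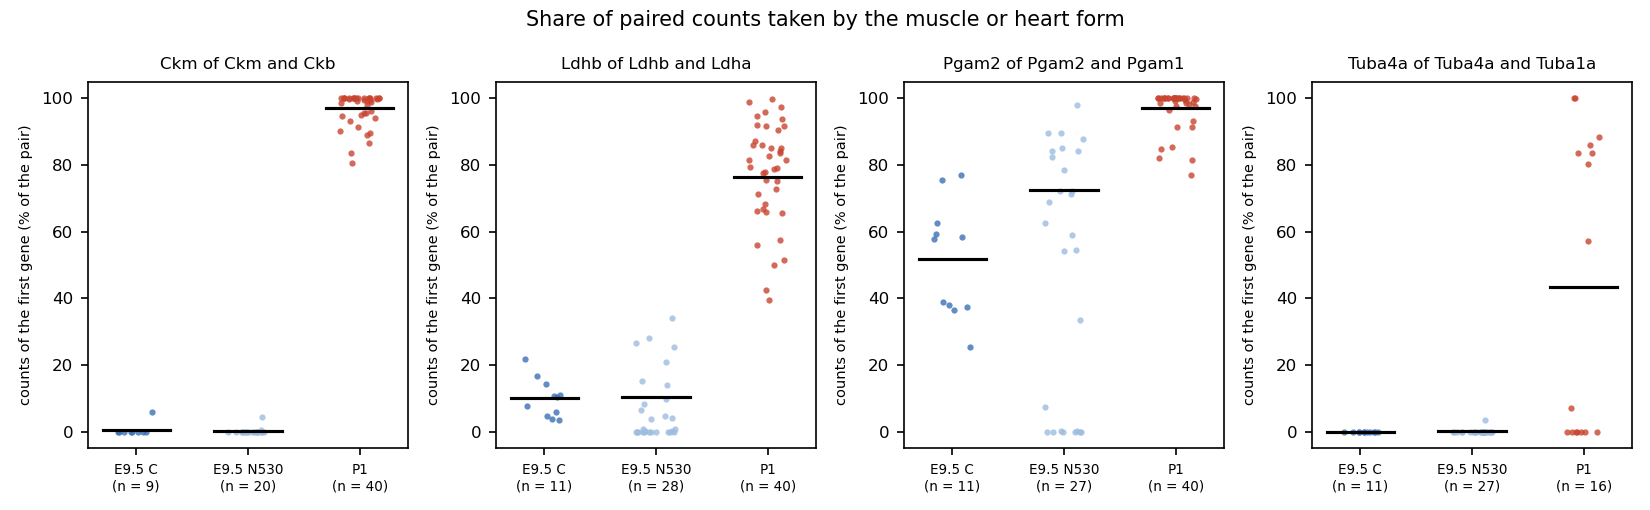
Percent of the counts of a gene pair taken by the first gene, in every cell with at least 20 counts of the pair (number of such cells under each group), for the pairs of Ckm, Ldhb, Pgam2 and Tuba4a. Black bars are the pooled share. For Ldhb the E9.5 C cells end at 21.7% and the P1 cells begin at 39.5%, and for Ckm the corresponding values are 5.88% and 80.7%.

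Among biosynthetic pathways, cholesterol synthesis had 14 of 19 genes lower and 0 higher, with a median of -1.60 and of -0.79 against N530 cells, where 8 were lower and 1 higher of 19, near the share of all genes lower there. Sqle, which makes squalene epoxide, fell from 78.6 to 1.36 CPM. For serine, one-carbon and nucleotide synthesis 16 of 35 genes were lower and 7 higher (median -0.64), or 25 and 3 of 38 against N530 cells, and Phgdh, the first enzyme of serine synthesis, went from 22.3 CPM to 0 counts at P1. Antioxidant genes and metallothioneins had 12 higher and 5 lower of 39 (median 0.31), but 11 higher and 10 lower of 40 on the deposited TPM (median 0.11). Fth1, the ferritin heavy chain that stores iron, ranged from 358 to 1035 CPM (median 833) at E9.5 and from 966 to 5770.1 CPM (median 3432) at P1, so that 39 of 40 P1 cells exceeded every E9.5 cell. The peroxiredoxin Prdx5 was 37.4-fold higher (95% interval 24.6 to 59.9), whereas Gpx3, a secreted peroxidase, was 2.97-fold lower (95% interval 2.87 to 3.08). A single cell weighed on some of these ratios, and without it log2 ratios moved for Phgdh from -5.62 to -4.48 and Sqle from -5.85 to -2.38.

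The machinery of protein synthesis did not move as a whole. Cytosolic ribosomal proteins were near level, with a median of -0.09 (0.29 by TMM) and 4 higher and 6 lower of 81 (11 and 3 by TMM, 2 and 15 on TPM), and their summed level was from 13804 to 47327 CPM (median 23507) at E9.5 and from 15172 to 41774 CPM (median 25026) at P1. Single members of this family are uncertain, since many have near-identical processed copies in the genome that can share their reads, and the same holds for Actb, Tuba1a, Eef1a1, Npm1, Ldha, Set and the HMG genes. Mitochondrial ribosomal proteins, which translate the messages of the mitochondrial genome, had a positive median, with 28 higher and 1 lower of 76 and a value of 0.72. By TMM 43 were higher and on TPM 17. Against N530 cells their median was 0.61. Summed per cell, the family ran from 3449.8 to 8432 CPM (median 5290.0) at E9.5 and from 6123 to 13814 CPM (median 9669) at P1, where 29 of 40 cells exceeded every E9.5 cell. Mrpl42 was its most abundant member, at 456 CPM in E9.5 CMs and 993 CPM in P1 CMs. Ribosome biogenesis, the nucleolar assembly of cytosolic ribosomes, had 19 of 37 genes lower and 3 higher (median -1.01), or 11 and 3 by TMM. The share lower by TMM was near that of all genes by TMM, 2160 of 7587. Against N530 cells 28 of 41 were lower and 3 higher. Npm1, the nucleolar chaperone nucleophosmin, fell from 2303 to 643 CPM and Polr1b, a subunit of RNA polymerase I, from 53.4 to 2.27 CPM. Translation factors had 4 higher and 10 lower of 53 (median -0.04, and 0.33 by TMM), or 4 and 17 on TPM, with Eef1a1 at 5660.5 CPM in E9.5 CMs and 4870.4 CPM in P1 CMs. The muscle form Eef1a2 held 0.104% of the Eef1a1 and Eef1a2 counts at E9.5 and 0.5% at P1. None of the 20 aminoacyl-tRNA synthetases compared was higher and 7 were lower (median -0.63), with 12 of 22 lower against N530 cells. Against the E9.5 C cells, the share of synthetases that were lower was near that of all genes. When the cell that held most counts of the gene was left out, the log2 ratio of Polr1b went from -4.56 to -1.41.

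Among genes of protein folding, cytosolic chaperones and the chaperonin ring had 11 of 27 genes lower and 0 higher, with a median of -0.74. The share of lower members was near the 37.5% of all genes. Ptges3, the HSP90 co-chaperone p23, fell from 5558 to 1295 CPM and Hsp90ab1 itself from 2944 to 1455 CPM, while Hspa8 stood at 1342 CPM in E9.5 CMs and 1560.2 CPM in P1 CMs. Without the E9.5 cell with most of its counts, the log2 ratio of Hsp90ab1 went from -1.02 to -0.89, short of 2-fold. Of the 8 small heat shock proteins, which guard muscle filaments, 2 were higher and 0 lower, but 1 and 1 on TPM and against N530 cells. Hspb6 had no count at E9.5 or in N530 cells and was found in 37 of 40 (34 thinned) P1 cells, from 0 to 1778 CPM (median 679.8), so that it was at least 1103-fold higher. Cryab, by contrast, stood at 680.1 CPM in E9.5 CMs and 1018 CPM in P1 CMs. Proteasome genes were near level (6 higher and 3 lower of 44, or 2 and 4 against N530 cells, median 0.11, and -0.21 on TPM), as were lysosomal genes (2 and 5 of 30, or 7 and 4 by TMM, median 0.11, and -0.33 on TPM). Muscle ubiquitin ligases and autophagy genes were 8 higher and 6 lower of 29 (median -0.18, and 0.20 by TMM), with 9 and 2 by TMM and 13 and 7 against N530 cells. In this list Asb11, a substrate receptor of a ubiquitin ligase, had no count at E9.5 and was at least 460.4-fold higher, with counts in 33 of 40 (32 thinned) P1 cells. Fewer genes of the MHC class I and interferon list reached the level limit, 8 of 38, of which 1 was higher and 3 were lower, and their median of -0.54 was 0.38 by TMM and 0.42 on totals without the 3 lists. Apoptosis regulators had 3 higher and 11 lower of 21 (median -1.08), or 6 and 8 by TMM, with Bok, a BCL2 family member, going from 50.7 CPM, of which 1 cell held 78.03%, to 0 counts, and Cidea, a lipid droplet protein of the same list, from 0 counts to 42.03 CPM. Leaving out the cell with most of a gene's counts moved the log2 ratio of Bok from -6.80 to -4.77.

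HMG proteins, chromatin enzymes and hnRNP and SR proteins had 57.1%, 51.1% and 53.5% of members lower at P1, against 37.5% of all genes. HMG proteins and histone chaperones, which loosen and repackage chromatin, had 16 of 28 genes lower and 0 higher, with a median of -1.51 and of -1.18 against N530 cells. Summed per cell they ran from 11107 to 29889 CPM (median 17034) at E9.5 and from 3679 to 11297 CPM (median 5814) at P1, where 39 of 40 cells lay under the lowest E9.5 cell. Hmga2, a chromatin protein of embryonic and stem cells, ranged from 35.8 to 2053 CPM (median 1192) in the 11 E9.5 cells and had no count in any of the 40 P1 cells. It was at least 2438-fold lower, and N530 cells stood at a pooled 474 CPM. The histone chaperone Set was 3.05-fold lower (95% interval 2.97 to 3.13), at 4028 CPM in E9.5 CMs and 1319.9 CPM in P1 CMs. Chromatin remodelling and modifying enzymes had 24 of 47 genes lower and 4 higher (median -1.02). By TMM 15 of 46 were lower and 5 higher, beside 2160 lower of all 7587 genes. Against N530 cells 21 of 46 were lower and 6 higher, beside 41.3% lower of all genes. Both shares were close to those of all genes. Ezh2, the Polycomb methyltransferase of dividing cells, fell from 115 to 44.1 CPM. Proteins of the hnRNP and SR families, which coat and splice nascent transcripts, had 23 of 43 genes lower and 1 higher (median -1.07). Against N530 cells 19 of 42 were lower and 1 higher. That share was near the 41.3% of all genes lower there, and the median of -0.70 was near the -0.57 of all genes. Hnrnpa2b1 went from 1391 to 490.5 CPM and Hnrnpl from 468 to 60.02 CPM, while Srsf2 was at 610.2 CPM in E9.5 CMs and 819 CPM in P1 CMs. Muscle splicing regulators had a median of -0.48, close to the -0.42 of all genes. Fewer of them were called than of all genes, with 1 higher and 4 lower of 16 (6.25% and 25.0%, against 21.2% and 37.5%). Qk, their most abundant member, stood at 2341 CPM in E9.5 CMs and 1898 CPM in P1 CMs.

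Long noncoding RNAs had 9 of 13 members lower and 2 higher, and the most abundant was one of the higher. Malat1, a nuclear RNA, ranged from 1658 to 11916 CPM (median 5725) at E9.5 and from 11214 to 69707 CPM (median 32899) at P1. It was 5.10-fold higher (95% interval 5.04 to 5.17), and 39 of 40 P1 cells exceeded every E9.5 cell. Since a cell that has lost cytoplasm keeps its nuclear RNA, Malat1 is also read as a sign of RNA quality, and its part in the other differences was not tested. Tug1, another nuclear RNA, moved the opposite way, from 2506 to 566 CPM, and Neat1 went from 0 counts to 47.5 CPM.

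Of 22 oncofetal and early embryonic genes in the file, 9 were at 0 in both groups and 9 were compared. Several of these passed the level limit through E9.5 alone, so that their direction was fixed by the limit and their values are given as a description. Trim71, which with the let-7 antagonist Lin28a keeps embryonic cells immature, ranged from 0 to 1080.3 CPM (median 253) at E9.5 and had no count at P1, so that it was at least 653-fold lower. It was found in 9 of 11 (8 thinned) E9.5 cells. Igf2bp1, an RNA-binding protein of fetal tissue, was at 180.1 CPM at E9.5 and had 2 counts at P1, a ratio of 596 with an interval of 164 to 4928. Its relative Igf2bp3 kept a measurable level, at 202 CPM in E9.5 CMs and 51.3 CPM in P1 CMs. Lin28a fell from 50.9 CPM to 0 counts, and the transcription factor Sall4 from 239 to 2.87 CPM. Of 39 Hox genes in the file none reached the level limit. A single cell weighed on some of these ratios, and without it the log2 ratio of Lin28a went from -6.81 to -5.16.

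Imprinted genes, which are expressed from 1 parental copy and regulate fetal growth, were lower as well, with 14 of 19 lower, 1 higher and a median of -2.32 (-2.10 against N530 cells). Summed per cell they ran from 6665 to 23819 CPM (median 11890.2) at E9.5 and from 992 to 7263 CPM (median 2815) at P1, and 39 of 40 P1 cells lay under every E9.5 cell. Cdkn1c, a growth inhibitor that stops the cell cycle, ranged from 125 to 3910.3 CPM (median 1528) at E9.5 and from 0 to 136 CPM (median 0) at P1. It was found in all 11 E9.5 cells and 2 of 40 P1 cells and was 469-fold lower (95% interval 329 to 696). Igf2r, which clears IGF2, ranged from 1186 to 11733 CPM (median 4868) at E9.5 and from 166 to 2172 CPM (median 877) at P1, and 10 of 11 E9.5 cells exceeded every P1 cell. Ndn, a growth suppressor, ranged from 19.4 to 766 CPM (median 349) in the 11 E9.5 cells and had no count at P1. Mest was carried by fewer cells, 6 of 11 at E9.5 and 20 of 40 (18 thinned) at P1, and 1 E9.5 cell held 37.8% of the E9.5 counts. Several of these genes are neighbours (GRCm38, RefSeq). Cdkn1c (chr7:143458339-143461059) lies in the cluster of the noncoding Kcnq1ot1 (chr7:143213111-143296547), which fell from 476 to 144 CPM. Meg3 (chr12:109540996-109571729) and Rian (chr12:109603945-109661716), noncoding RNAs of the same locus, went from 89.96 and 74.96 CPM to 2.27 CPM and 0 counts. Peg3 (chr7:6703892-6730462) and Usp29 (chr7:6730559-6967220) adjoin each other and fell from 138 and 20.7 to 35.1 and 0.605 CPM. The libraries do not keep strand, so reads of Kcnq1ot1 and Igf2r cannot be told apart from those of genes that overlap them on the other strand. When the cell that held most counts of the gene was left out, log2 ratios moved for Kcnq1ot1 from -1.73 to -1.14, Meg3 from -5.31 to -4.69, Rian from -7.37 to -6.40 and Usp29 from -5.10 to -3.55.

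Cardiac transcription factors had 17 lower and 5 higher of 33 genes (median -1.002, and -0.45 against N530 cells). Against N530 cells there were 4 higher and 14 lower of 34, so that the share of lower members was near that of all genes there, and the median lay above that of all genes. Nkx2-5, Tbx5 and Srf, which with the genes named next belong to the core of the heart muscle programme, were called lower, at 20.7, 132 and 122 CPM in E9.5 CMs and 6.95, 50.6 and 33.4 CPM in P1 CMs. Against N530 cells their log2 ratios were -1.44, -0.58 and -1.12. Gata4 stood at 70.9 CPM in E9.5 CMs and 95.3 CPM in P1 CMs, with 53.8% of its P1 counts in 1 cell, Tbx20 at 424 CPM in E9.5 CMs and 418 CPM in P1 CMs and Myocd, the co-activator of muscle genes, at 226 CPM in E9.5 CMs and 277 CPM in P1 CMs. Hand2 and Gata6, further factors of the early heart, were at 14.8 and 242 CPM at E9.5 and at 17.4 and 241 CPM at P1. Isl1, which marks the second heart field, was found in 3 of 11 E9.5 cells and no P1 cell, and 1 cell held 64.8% of its E9.5 counts. Hand1 went from 68.8 CPM to 0 counts and Msx2 from 67.01 CPM to 0 counts. Sox11, a factor of embryonic progenitors, ranged from 261 to 2867 CPM (median 988) at E9.5 and from 0 to 509.9 CPM (median 0) at P1. It was 20.6-fold lower (95% interval 18.6 to 22.9), and 8 of 11 E9.5 cells exceeded every P1 cell. Mef2c, a factor of muscle differentiation, was 5.69-fold lower (95% interval 5.23 to 6.19). Hopx, a partner of chromatin enzymes that restrains SRF, rose from 38.8 to 338 CPM, and Hey2, a repressor of atrial genes in the ventricle, from 11.4 to 73.03 CPM. Leaving out the cell with most of a gene's counts moved the log2 ratio of Gata4 from 0.43 to -0.64, Hand1 from -7.25 to -6.30, Hey2 from 2.68 to 2.02 and Isl1 from -7.33 to -5.91. That of Srf moved from -1.87 to -1.20.

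Among nuclear receptors and metabolic coactivators 7 of 23 genes were higher and 4 lower (median 0.10, and -0.03 against N530 cells). On the deposited TPM 1 was higher and 5 lower of 13, and against N530 cells 6 and 6 of 21. Ppara, the receptor that turns on fatty acid oxidation genes, had no count at E9.5 and was found in 14 of 40 (11 thinned) P1 cells, at a pooled 40.1 CPM. The thyroid hormone receptor Thrb also had no count at E9.5, but its 46.3 CPM at P1 came from 2 of 40 cells, of which 1 held 91.8% of the counts. Ppargc1a, a coactivator of mitochondrial genes, was at 84.3 CPM in E9.5 CMs and 158 CPM in P1 CMs. Only 9 of 18 circadian clock genes reached the level limit, 5 of them higher and 2 lower, and on the deposited TPM 3 did, with 0 higher and 0 lower. Hlf, an output gene of the clock, had no count at E9.5 and 28.3 CPM at P1, and Nr1d2, a repressor within the clock, had 2 counts at E9.5 and 34.2 CPM at P1. A single cell weighed on some of these ratios, and without it log2 ratios moved for Hlf from 5.37 to 4.60 and Thrb from 6.09 to 2.52.

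Signals that pattern the embryonic heart had more members lower than higher in the BMP, Wnt and growth factor families. In the BMP, TGF-beta and activin pathway 17 of 24 genes were lower and 3 higher, and the median was -2.97 (-2.70 against N530 cells). The ligand Bmp2 went from 105 CPM to 0 counts and Tgfb2 from 299 to 29.9 CPM. The Id proteins, known targets of this pathway that block differentiation factors, were lower too. Id2 ranged from 0 to 3356 CPM (median 1826) at E9.5 and from 0 to 807 CPM (median 0) at P1, and 8 of 11 E9.5 cells exceeded every P1 cell. It was found in 10 of 11 E9.5 cells and 5 of 40 P1 cells, the same numbers as after thinning. Id3 had 2 counts at P1 against 184 CPM at E9.5, and Id1 0 counts against 59.5 CPM. The inhibitory Smad6 and Smad7 had 0 and 2 counts at P1, against pooled E9.5 levels of 45.9 and 33.8 CPM. Bmp10, a ligand made by CMs themselves, was at 21.1 CPM in E9.5 CMs and 29.9 CPM in P1 CMs, but its log2 ratio was -6.89 without the 6 P1 cells with Sln. When the cell that held most counts of the gene was left out, log2 ratios moved for Bmp10 from 0.50 to -0.16, Bmp2 from -7.85 to -7.17 and Smad7 from -6.81 to -6.03.

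In the Wnt pathway 13 of 20 genes were lower and 2 higher (median -1.80, and -1.47 against N530 cells). By TMM 6 higher and 12 lower of 21 were counted, and on totals without the 3 lists 7 higher and 14 lower of 24. The ligand Wnt2 was found in 6 of 11 E9.5 cells, from 0 to 656 CPM (median 151), and had no count at P1, so that it was at least 457-fold lower. Rspo3, which amplifies Wnt signals, fell from 233 to 1.36 CPM, with 70.7% of its E9.5 counts in 1 cell. Lgr4, a receptor for that protein, stood at 869 CPM in E9.5 CMs and 648 CPM in P1 CMs. Of the Notch pathway only 7 of 25 genes were compared, 2 higher and 3 lower. The ligand Jag1 ranged from 221 to 4929 CPM (median 792) in all 11 E9.5 cells and from 0 to 160.3 CPM (median 0) at P1, where 6 of 40 cells had counts. No P1 cell reached the lowest E9.5 cell, and the level was 91.7-fold lower (95% interval 75.7 to 112). N530 cells stood at 846 CPM. Leaving out the cell with most of a gene's counts moved the log2 ratio of Rspo3 from -7.42 to -5.85.

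Among growth factors, their receptors and guidance cues 27 of 45 genes were lower and 12 higher (median -2.10), or 17 and 6 of 27 on TPM. Igfbp5, which binds insulin-like growth factors, was 144-fold lower (95% interval 114 to 183) and ranged from 0 to 4128 CPM (median 1664) at E9.5 and from 0 to 220.5 CPM (median 0) at P1. Gpc3, a surface proteoglycan that limits fetal growth, was 15.96-fold lower (95% interval 14.3 to 17.8). Fgf10, a ligand of the second heart field, went from 104 CPM to 0 counts. Sema5a, a guidance cue, rose from 2 counts to 81.04 CPM. Of the adrenergic, cAMP and calcium-kinase genes 16 were higher and 10 lower of 44 (median 0.32), but the order of these counts turned to 6 and 8 of 32 on TPM (median -0.04) and to 11 and 16 of 42 against N530 cells (median -0.15). The list holds several scaffolds for protein kinase A. Akap5 ranged from 0 to 1789 CPM (median 719) at E9.5, with counts in 9 of 11 cells, and had no count at P1, so that it was at least 1357-fold lower. Akap12 fell from 153 CPM to 0 counts, and Akap6, which gathers the kinase at the nuclear envelope and the calcium store of CMs, was 69.97-fold higher (95% interval 42.3 to 125). Prkar1a, a regulatory subunit of the kinase, rose from 393 to 905 CPM. A single cell weighed on some of these ratios, and without it the log2 ratio of Fgf10 went from -7.84 to -7.01.

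Natriuretic peptides and secreted cardiac factors had 6 of 14 genes higher and 2 lower (median 0.55), or 4 and 4 on TPM, and their summed counts were set by few cells. Nppa, the atrial natriuretic peptide, ranged from 0 to 2597 CPM (median 0) at E9.5 and from 0 to 120233 CPM (median 22.3) at P1. The pooled level was 47783 CPM in the 6 P1 cells with Sln and 811 CPM in the other 34, against 593 CPM at E9.5, so that its rise to a pooled 7961 CPM rested on those 6 cells. Corin, the protease that activates the peptide, went from 5.45 to 135 CPM, and Clu, a secreted chaperone, from 52.02 to 727 CPM. Chamber markers differed as well. The light chain Myl2 stood at 768 CPM in E9.5 CMs and 6541 CPM in P1 CMs, and the atrial chains Myl7 and Myl4 went from 7844 and 2036 to 2523 and 467 CPM. In the 6 P1 cells with Sln, Myl7 and Myl4 stood at 14756 and 2899 CPM and Myl2 at 1605 CPM, whereas the other 34 P1 cells held 326 and 30.7 CPM of the atrial chains and 7428 CPM of Myl2. The summed ventricular list ran from 48.5 to 9601 CPM (median 2951) at E9.5 and from 742 to 34348 CPM (median 24939) at P1, so chamber and age cannot be told apart for such genes. The 11 conduction and pacemaker genes summed to at most 1923 CPM in an E9.5 cell and 372 CPM in a P1 cell, and 6 of them, Hcn4, Shox2, Tbx3 and Isl1 included, were at 0 at P1.

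**Figure D4:**
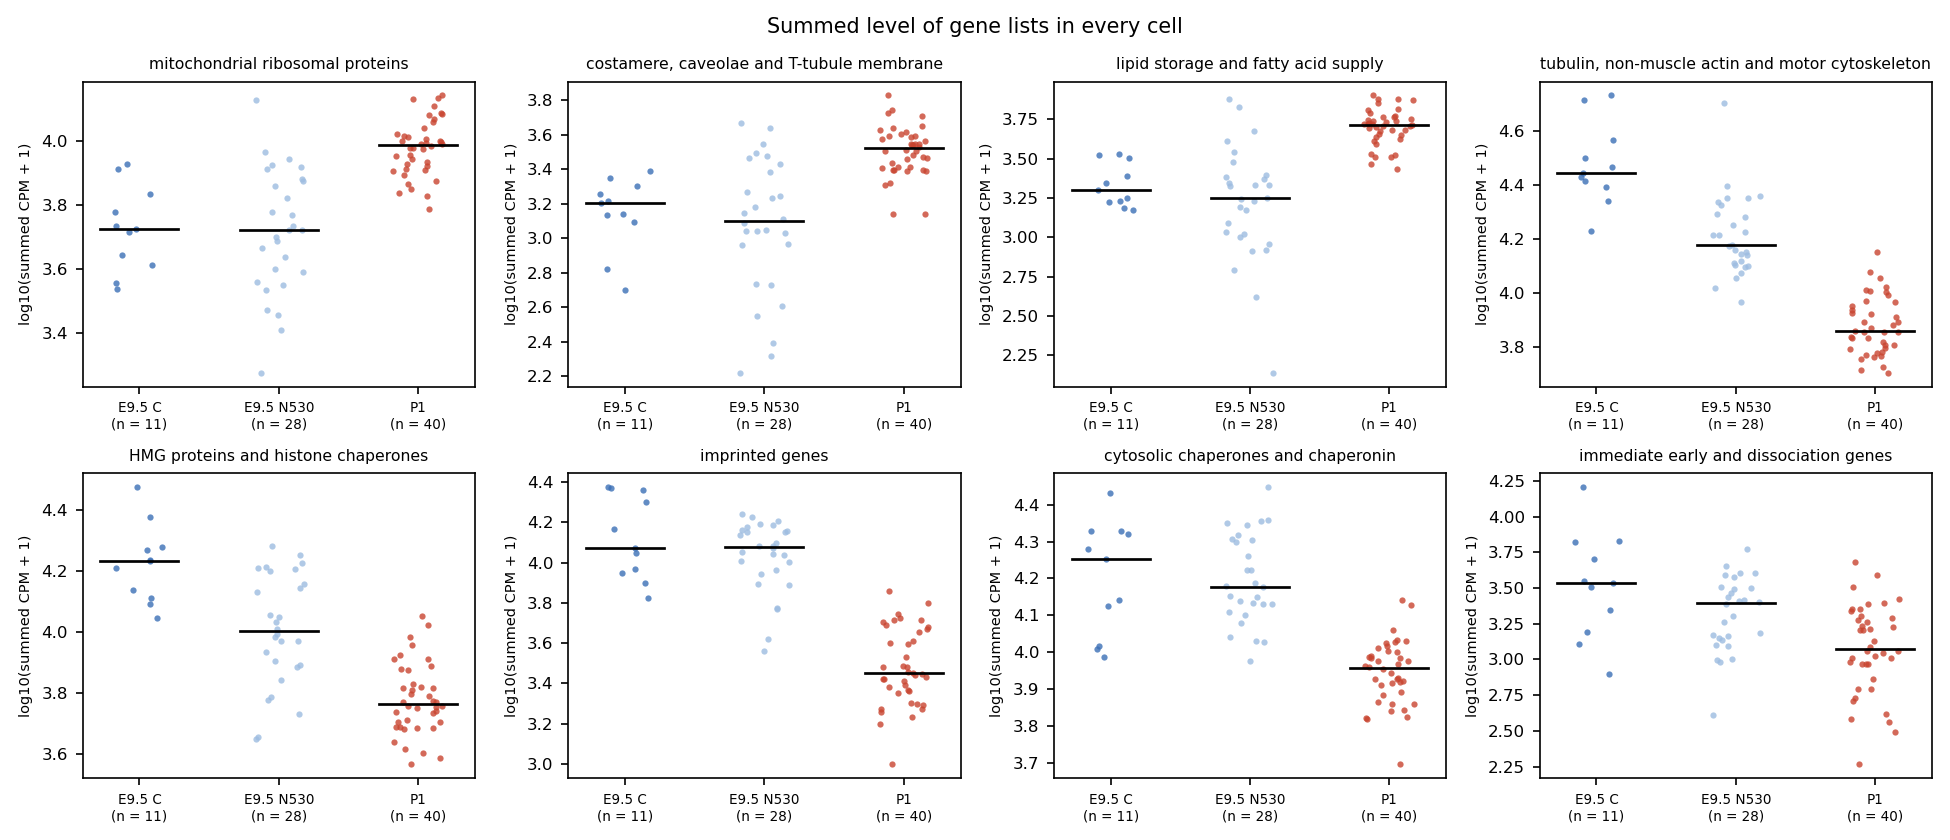
Summed CPM of 8 gene lists in every cell, as log10(summed CPM + 1), for the 11 E9.5 C cells, the 28 E9.5 N530 cells and the 40 P1 cells, with a black bar at each median. All P1 cells lie under all E9.5 C cells for the cytoskeleton list, and 39 of 40 do for HMG proteins and for imprinted genes, while the immediate early genes overlap.

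Cell shape and surroundings formed another large group of lower genes. The non-muscle cytoskeleton of tubulin, actin and motors had 27 of 43 genes lower and 3 higher, with a median of -1.58 and of -1.25 against N530 cells, where 22 were lower and 7 higher. Its summed level ran from 16950.0 to 54123 CPM (median 27981) at E9.5 and from 5053 to 14197 CPM (median 7222) at P1, with no overlap between the groups. Actb, cytoplasmic beta-actin, ranged from 3770.2 to 33810.1 CPM (median 8950.3) at E9.5 and from 286 to 3107 CPM (median 942) at P1, also without overlap, and was 10.8-fold lower (95% interval 10.6 to 11.1). Dpysl2, a tubulin-binding protein best known from growing axons, ranged from 2239 to 9661 CPM (median 4877) at E9.5 and from 0 to 1386 CPM (median 0) at P1. It was found in all 11 E9.5 cells and 11 of 40 (10 thinned) P1 cells, and was 68.99-fold lower (95% interval 63.3 to 75.3), with N530 cells at 2805 CPM. Among the tubulins, Tuba4a had no count at E9.5 and 100.4 CPM at P1, in 15 of 40 (14 thinned) cells, whereas Tuba1a fell from 1129 to 132 CPM. Intermediate filaments, keratins and lamins had 8 of 12 genes lower and 1 higher, with a median of -2.49 that was -0.74 against N530 cells, near the -0.57 of all genes there. Krt18, a keratin of early epithelia and of the embryonic myocardium, fell from 143 to 0.907 CPM, and the exception, the cross-linker Plec, rose from 117 to 538 CPM.

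Collagens and other matrix genes had 19 lower and 9 higher of 34 (median -1.13), and against N530 cells 29 lower and 2 higher of 44 (median -2.25). Of the 9 higher members 3 had a log2 ratio above 0 against N530 cells too, and 47 of 81 did not reach the level limit. Single N530 cells held more fibroblast and epicardial counts than any E9.5 C cell, and their part in the N530 values was not tested. Vcan, versican, the proteoglycan of the embryonic cardiac jelly, ranged from 56.1 to 3987 CPM (median 922) at E9.5 and from 0 to 1347 CPM (median 0) at P1. It was 50.8-fold lower (95% interval 43.9 to 59.1), with 37 of 40 P1 cells under the lowest E9.5 cell. Fbln1, another matrix gene of the embryo, fell from 104 to 29.3 CPM. Annexins and S100 proteins had 6 higher and 1 lower of 10 (median 1.19), though against N530 cells they were 4 and 4 of 11, and on the deposited TPM they were 4 and 4 of 12 and the median was -0.14. Anxa3 went from 119 CPM to 0 counts.

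Several of the 24 genes with the largest ratios outside the cell cycle, sarcomere and respiration belong to none of these families. On the higher side, Mlf1 had no count at E9.5 and ranged from 0 to 2019 CPM (median 864) at P1, in 39 of 40 cells. It was at least 1298-fold higher. Yipf7, a membrane protein of the Golgi, and Fam40b were at least 404-fold higher and at least 342-fold higher, with counts in 31 of 40 (30 thinned) and 31 of 40 (29 thinned) P1 cells. On the lower side, Zfp57, a zinc finger protein that maintains imprints, ranged from 0 to 1204 CPM (median 406) at E9.5 and had no count at P1. It was at least 854-fold lower, and N530 cells stood at 38.4 CPM. Rassf5 and Pabpc4l were at 296 and 319.8 CPM at E9.5 with 3 and 4 counts at P1, and Polr3g, a subunit of RNA polymerase III in embryonic cells, was at 120.2 CPM with 1 count at P1, a ratio of 795 with an interval of 142 to 31452. When the cell that held most counts of the gene was left out, the log2 ratio of Polr3g went from -9.63 to -8.70.

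Genes that respond within minutes to handling of tissue also differed. Of 37 immediate early and dissociation genes in the file, 27 were compared, 0 were higher at P1 and 21 were lower, with a median of -2.63 (-1.51 against N530 cells). Their summed level ran from 787 to 16178 CPM (median 3449.9) at E9.5 and from 183 to 4784 CPM (median 1187) at P1, with overlap. Fos was at 512 CPM in E9.5 CMs and 80.9 CPM in P1 CMs, Egr1 at 235 CPM in E9.5 CMs and 56.4 CPM in P1 CMs and Cyr61 at 402 CPM in E9.5 CMs and 21.5 CPM in P1 CMs. The dissociation protocol differed between the ages, so age and handling cannot be told apart for these genes, and their part in the other differences was not tested. Leaving out the cell with most of a gene's counts moved the log2 ratio of Cyr61 from -4.23 to -3.54.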

How the data were processed

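Single GFP+ cells were captured on a Fluidigm C1 chip and sequenced as full-length SMART-Seq libraries without molecular identifiers or strand. The authors aligned reads with OLego to the mouse genome (GRCm38, mm10) and deposited a table of featureCounts read counts per gene and cell. The deposited TPM values, also made by the authors, were used for 1 alternative only. No mitochondrial symbols were in the table.

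Counts were summed over the 40 P1 and the 11 E9.5 cells and expressed as CPM (numpy 2.4.6, pandas 2.3.3). Intervals are exact 95% Poisson or binomial intervals (scipy 1.17.1). These intervals cover the counting of reads only and leave out the spread between cells and between animals. The libraries carry no molecular identifiers, so copies of 1 molecule are counted as separate reads. For both reasons the intervals are too narrow. A group at 0 counts was set to a floor of 3 counts over the group, 0.454 CPM at P1 and 0.681 CPM at E9.5, for a lower bound on the ratio, and log2 ratios of such genes are bounds too. No 2 libraries held identical values. TMM factors came from edgeR 4.0.16 in R 4.3.3, and figures from matplotlib 3.10.9. The code was tested on simulated data. Doublets were not called.

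Genes were named by rule: in each direction, the 12 with the largest ratio among those at 50 CPM or more and found in at least 50% of cells of the higher group, and in each family the 3 with the largest ratio, both with the same direction against N530 cells, and, with no condition on direction, the 3 most abundant of each family and the genes of the cell type marker lists. The families, lists and cells were chosen with earlier results of these data known. Some genes that the rule names are not reported here. E12.5 cells were not used here.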

Additional observations from a re-analysis of the deposited data

How the results depend on the processing

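The number of genes at least 2-fold higher or lower at P1 was set mainly by the limits chosen. With no limit on the level, 3083 genes were higher and 4527 lower, at a limit of 50 CPM 590 and 1124, and from a 4-fold difference on 843 and 1545. On the deposited TPM 974 genes were higher. The other 27 values of these counts, over other scalings, cell limits and cell sets, lay within 1.5 times the reported ones. Of the family values at least 2-fold apart, 2 changed direction, and medians nearer 0 that changed sign with the scaling are given in the results. The summed natriuretic and secreted factors had a log2 ratio of -0.084 without the P1 cells at 100 CPM or more of Sln, and annexins and S100 proteins had a median of -0.14 on TPM. Of the named genes at least 2-fold apart, Slc2a4 changed direction, at -0.40 against N530 cells, and of the 17 under 2-fold, 11 had another sign under at least 1 alternative. Without the cell with most of its counts, 27 of 156 named genes moved by over 1.5 times, and the 25 of them that differed at least 2-fold still did so in the same direction. Without the 3 kept cells whose titles end in "no", 1700 genes were higher and 2822 lower, and 37 gene values and 35 family values moved with none reversed. The cause was not tested. No paired analysis was possible because the labels give no replicate numbers and the comparison has no test. With 11 cells at E9.5, a gene without a count there could still be found in a sizeable share of cells, and P1 cells were read less deeply.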
